A study of Mus musculus with 5 samples.

Results

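A stretch of mouse chromosome 6 from Krcc1 to Adamts9 was followed in undifferentiated embryonic stem cells that lacked or carried Mkl2. Of the 19938 genes on the arrays with a symbol of their own, 207 lie in this stretch by the GRCm38 gene order, and 150 of these had a mean over the 5 arrays above the background level of 7.30 on the log2 scale. Background was set where 95% of 1027 olfactory receptor genes, taken as a gauge of signal without expression, fall at or under it. The genes Hk2, Mcm2, Tcf7l1, Tet3, Actg2 and Egr4 were set aside by the selection, 5 of them above background, which left 145 members, each read by the brightest feature that carried its symbol alone. The ends of the stretch were drawn from the very differences described here, so all differences of the members between genotypes are descriptions and no test is attached to them.

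Total RNA came from 2 wild-type and 3 Mkl2-/- cultures of C57BL/6 cells, grown under the same conditions with leukaemia inhibitory factor and serum on gelatin with mouse embryonic fibroblast feeders. Before lysis, the feeders were left to attach to a dish for 1 h and the floating stem cells were collected. Mkl2 (Mrtfb in current annotation) is the gene of a myocardin-related partner protein of serum response factor. The series text calls the cultures independent, but the labels do not say how many lines or clones gave each genotype. The spread between arrays is therefore only known to be that between cultures. Values are RMA log2 intensities as deposited, a difference is Mkl2-/- minus wild type, and ± is the moderated SE of the limma fit with 2 and 3 arrays. Precision is limited by having only 5 arrays.

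Neighbouring genes of a mammalian chromosome often serve unrelated tasks, and many, though not all, have promoters of their own. The stretch holds many genes that nearly every cell uses, among them subunits of the protein translocon, the exocyst, mitochondrial ribosomes and the splicing machinery. It also holds genes used in single tissues, such as gastrokines of the stomach, the Cd8 genes of T cells and homeobox factors of the embryo. Of the members, 139 are protein coding and 6 are long noncoding RNA genes.

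In the arrays labelled Mkl2-/-, Mkl2 itself read 9.32, 9.32 and 9.09, against 9.80 and 9.75 in wild type, and all 3 lay below both wild-type arrays. The labels do not place that feature inside or outside the deleted part. All 10 pluripotency markers checked were above background, but they were not alike between the genotypes. By the limma fit with Benjamini-Hochberg adjustment, Nanog (-1.14 ± 0.07, adjusted p = 0.00818), Klf4 (-0.69 ± 0.03, adjusted p = 0.00665) and Tfcp2l1 (-0.67 ± 0.09, adjusted p = 0.0325) were lower, each on all 3 Mkl2-/- arrays. Dppa5a (0.49 ± 0.06, adjusted p = 0.0294) and Utf1 (0.39 ± 0.05, adjusted p = 0.0302) were higher on all 3, and the other 5, Pou5f1 and Sox2 among them, did not pass. Without wild-type replicate 2, 0 genes passed in this fit. The log2 of the markers' summed intensity, which the brightest weigh most, was 15.26 to 15.30 in wild type and 15.30 to 15.33 in Mkl2-/-. Of 12 fibroblast markers 9 were above background and Fap, Postn and Lum were below it, with a log2 summed level of 11.57 to 11.60 in wild type and 11.41 to 11.47 in Mkl2-/-. The fibroblast sum was thus lower in Mkl2-/- without overlap. By gene, only Pdgfrb was called lower in the limma fit (-0.28 ± 0.04, adjusted p = 0.035), and 0 of the list were called higher. Col1a1, the brightest of them, differed by -0.29 ± 0.07 and did not pass. Col3a1 (0.05), S100a4 (0.08) and Fap (0.00) were not lower. The part of either marker list in the differences of the members was not tested. In bulk RNA, fewer cells of a type and less RNA per cell cannot be told apart.

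Most members read lower in Mkl2-/- cells. Their median difference was -0.39 (1.31-fold lower), with a middle range from -0.59 to -0.07 and extremes of -1.09 in Exoc6b and 0.21 in Tlx2. The 13553 genes above background had a median of 0.01, and so did the 470 such genes of chromosome 6 outside the stretch. By sign, 115 members were negative, 25 positive and 5 zero. A difference of -0.30 or lower was found in 88 members, against 8.69% of all genes above background, and 0 members reached 0.30, against 3.33%.

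Every Mkl2-/- array lay below every wild-type array in 104 of the 145 members, or 71.7%, against 22.7% of the genes above background. The opposite order was found in 4 members, Atoh8, Tlx2, Cyp26b1 and Chst13, against 20.3%. The limma fit over all 19938 genes, with an adjusted p under 0.05 after Benjamini-Hochberg adjustment, called 75 members lower, against 6.28% of all genes and 8.79% of those above background. It called 0 members higher, against 2.99% and 4.15%, and 0 members were higher at an unadjusted p under 0.05, against 13.2% of genes above background. Since the stretch was chosen on this contrast, nothing is read from these counts. Without Mkl2-/- replicates 1, 2 and 3, the limma fit called 253, 309 and 326 of all 19938 genes lower. The count of lower members was 24, 25 and 26 without Mkl2-/- replicates 1, 2 and 3. Leaving out a wild-type array leaves 1 in that group, so member counts past the adjusted threshold from those fits are not set beside these. Without wild-type replicate 2, 88 members were lower at an unadjusted p under 0.05 in limma, against 15.0% of genes above background. With each array left out in turn, the median difference stayed between -0.41 and -0.38. The count of members with all Mkl2-/- arrays lower was then 104 to 109. Leaving out an array can only keep or raise that count, and the share of 22.7% holds for all arrays together.

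**Figure D1:**
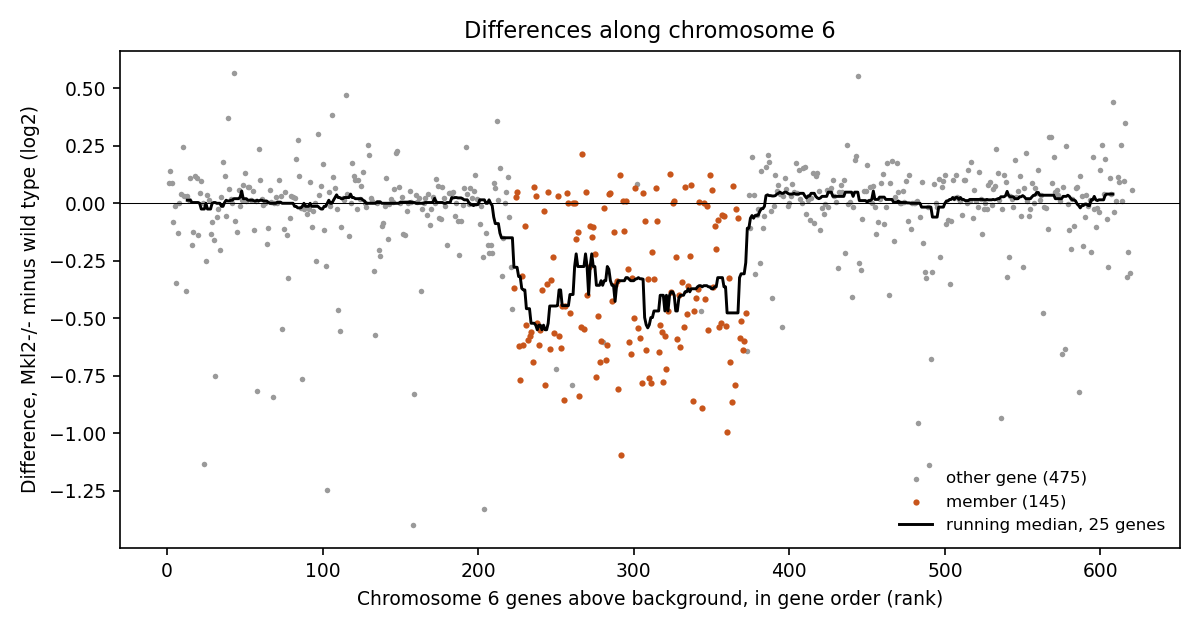
Difference between Mkl2-/- and wild type (log2) for the 620 chromosome 6 genes above background, by rank in gene order. Orange points are the 145 members and grey points other genes (those set aside by the selection included). The line is the running median over 25 genes, which is lowest between Krcc1 and Adamts9 and slopes at both ends.

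Along chromosome 6, the running median of the difference over 25 genes was lowest at Usp39, at -0.55. All 150 windows centred in the stretch were at -0.22 or lower, with the value nearest to zero at Dok1. Outside, windows ran from -0.15, at Gng12, to 0.05. The plot of differences along the chromosome shows a line near zero far from the stretch and lower values between ranks 223 and 372 of 620 genes. The line slopes at the ends, where windows hold genes of both sides. It was at -0.15 from Gng12 to Foxi3, before Krcc1, and at -0.11 at Magi1, after Adamts9. The windows are the values that set the ends, and they are given as a description.

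At the ends, single genes just inside and just outside did not divide cleanly. Before Krcc1, the nearest gene above background was Foxi3, a forkhead factor gene, which read 11.39 and 11.42 in wild type against 10.98, 11.00 and 10.86 in Mkl2-/- (-0.46 ± 0.05). Next outward, Eif2ak3, which encodes the stress kinase PERK, differed by -0.28 ± 0.07, and Rpia, a pentose phosphate enzyme gene, by -0.06 ± 0.03. In all 3 of these genes outside the stretch, every Mkl2-/- array lay below both wild-type arrays. Krcc1 read 8.12 and 8.50 in wild type against 7.85, 8.01 and 7.96 in Mkl2-/- (-0.37 ± 0.14). Its wild-type arrays were far apart, and the difference was -0.56 without wild-type replicate 1 and -0.18 without wild-type replicate 2. The next genes inside, Gm1070 (0.03) and Cd8a (0.05), were dim.

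At the other end, Adamts9, which encodes a secreted metalloprotease of the extracellular matrix, read 9.48 and 9.22 in wild type against 8.81, 8.85 and 8.96 in Mkl2-/- (-0.48 ± 0.10). The groups did not overlap, but the wild-type arrays differed more from each other than the Mkl2-/- arrays did. Just beyond it, the scaffold gene Magi1 read 9.56 and 9.71 in wild type against 9.05, 8.95 and 8.98 in Mkl2-/- (-0.64 ± 0.06). The genes after Magi1 were Slc25a26, a mitochondrial carrier gene (0.04 ± 0.04), and Lrig1, a receptor regulator gene (-0.11 ± 0.04). Here 1 gene beyond the end was lower by more than the end gene itself.

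Near the level threshold, the dimmest members were Sema4f, C87436 and Figla, with means of 7.32, 7.38 and 7.39 and differences of 0.00, -0.21 and 0.04. The brightest genes that missed it were Prickle2, Podxl2 and Noto, with means of 7.27, 7.26 and 7.21 and differences of -0.15, -0.03 and 0.07. Over all 57 genes of the stretch at or below background the median difference was 0.01, and they ran from -0.19 to 0.18.

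**Figure D2:**
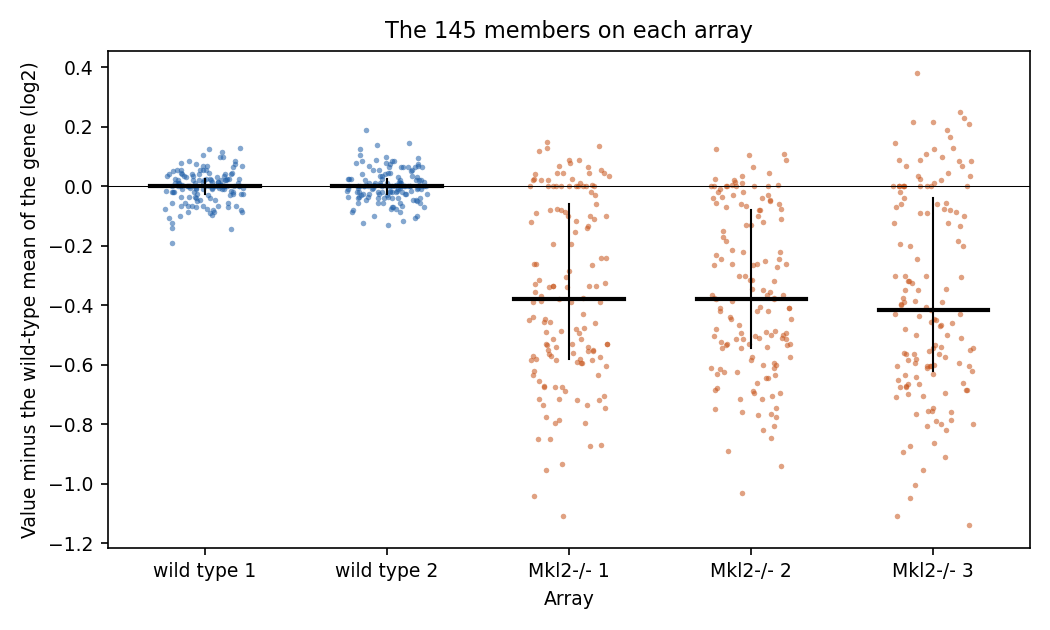
Value of each of the 145 members on each array minus that gene's wild-type mean (log2). Thick bars are medians and thin bars run between the quartiles. The medians are 0.00 on both wild-type arrays and -0.38, -0.38 and -0.42 on the Mkl2-/- arrays. The wild-type arrays mirror each other because their own mean is subtracted.

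The shift was of like size on each Mkl2-/- array. Relative to each gene's wild-type mean, the median of the members was -0.38, -0.38 and -0.42 on Mkl2-/- replicates 1, 2 and 3, with a pooled SD of the array medians of 0.02. On the same arrays the median of all genes above background was at most 0.005. The wild-type arrays differed from each other by a median of 0.00 over the members, with 63 members lower and 58 higher on replicate 2. Between any pair of Mkl2-/- arrays the median over the members was also 0.00. The plot of values by array shows a narrow cloud in wild type and a broad one in Mkl2-/-, where the upper quartile lay from -0.08 to -0.04. Wild-type values are set against their own mean, so the widths of the clouds do not compare the spread between cultures. The SD over the members of the difference between arrays was 0.11 for the wild-type pair. For the pairs of Mkl2-/- arrays it was 0.10, 0.11 and 0.13.

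**Figure D3:**
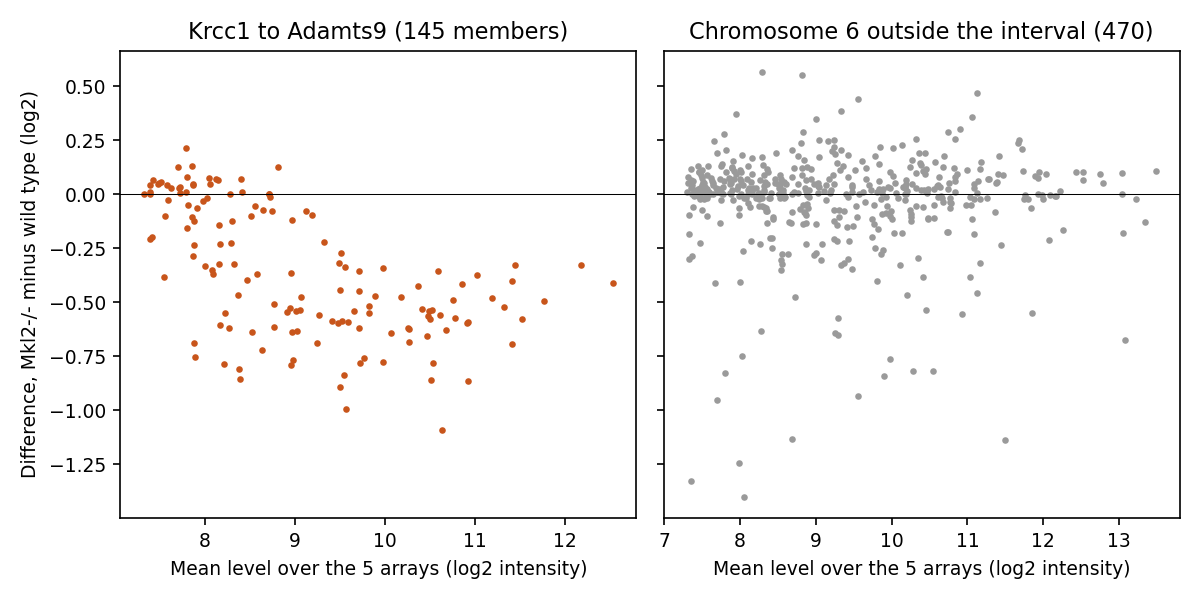
Difference (log2) against mean level over the 5 arrays (log2 intensity), for the 145 members and for 470 genes of chromosome 6 outside the stretch. Members with a mean of 9 or more all lie below zero; the genes outside scatter around zero at every level.

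Brighter members had the larger differences. The 36 members with a mean level under 8 had a median difference of 0.00, and the 44 from 8 to under 9 a median of -0.32. The 31 from 9 to under 10 had a median of -0.54, and the 34 at 10 or more a median of -0.56 (1.48-fold lower). In all 65 members with a mean of 9 or more, every Mkl2-/- array lay below every wild-type array, against 26.7% of the 243 genes of that brightness on chromosome 6 outside the stretch. Those 243 genes had a median of 0.01. Over the members, Spearman's rho between mean level and difference was -0.62 (n = 145), and over the 470 genes outside it was -0.02. The genes share arrays and neighbours, and the rho is a description. The part of low signal in the near-zero values of dim members was not tested.

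Among the 65 bright members, with a mean of 9 or more, 43 had differences from -0.70 to -0.40, and 10 lay below -0.70. The SD of their differences was 0.19, against 0.23 for the bright genes outside the stretch, while the median SE of a single difference was 0.05. Members thus differed from each other by more than the error of 1 gene. Only 4 bright members were above -0.30: Wbp1 (-0.28 ± 0.07), Dctn1 (-0.22 ± 0.05), which encodes the dynactin subunit p150, Ino80b (-0.10 ± 0.04), a chromatin remodelling subunit gene, and Tgfa (-0.08 ± 0.03), a ligand of the EGF receptor. Wbp1, Ino80b and Dctn1 lie close together in gene order, at places 47, 48 and 51 of the 145.

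With the members cut into 4 runs by gene order, the median difference was -0.45 from Krcc1 to Sema4f, -0.28 from M1ap to Smyd5, -0.43 from Pradc1 to Rpn1 and -0.39 from Gata2 to Adamts9. The median level of these runs was 8.96, 8.44, 9.34 and 8.68, so the run with the smallest shift was also the dimmest. The part of brightness in that order was not tested. The longest unbroken run of members with all Mkl2-/- arrays below wild type held 8 genes, from Mxd1 to Antxr1. In 5 members, Tacr1, Sema4f, M1ap, Efcc1 and Gm1965, all 5 arrays gave the same value to 2 decimals, so these features carried no information on the genotypes.

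**Figure D4:**
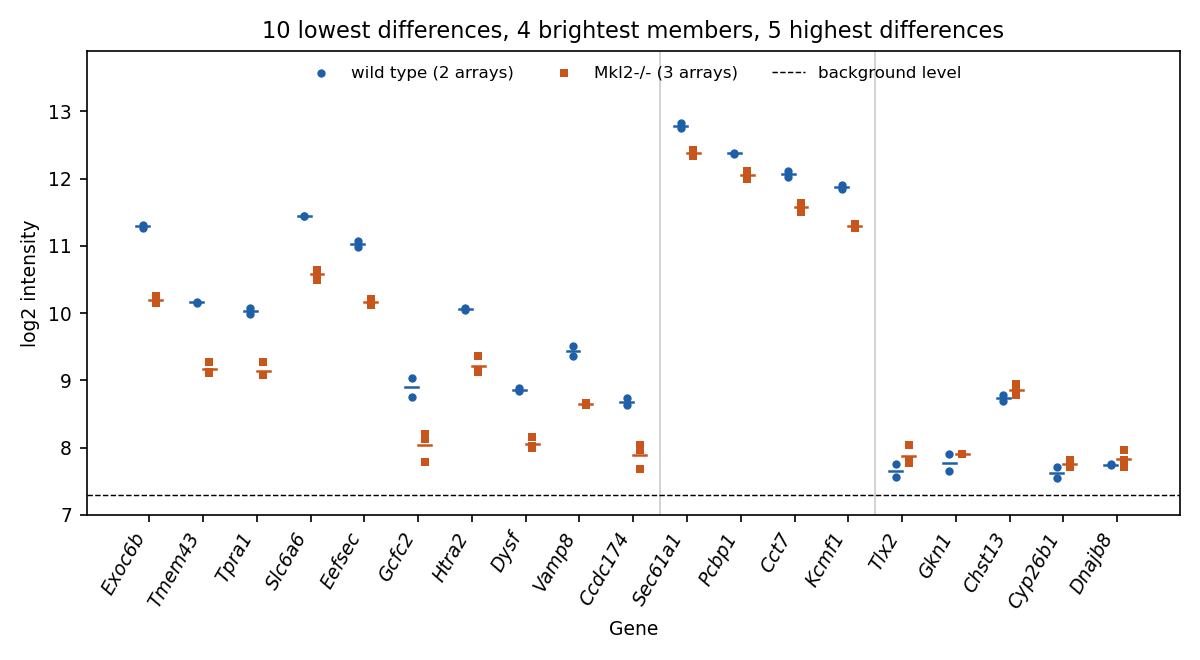
log2 intensity on each array for the 10 members with the lowest differences, the 4 brightest members and the 5 with the highest differences. Circles are the 2 wild-type arrays, squares the 3 Mkl2-/- arrays, short bars the group means and the dashed line the background level of 7.30; the groups are separate in the first 14 genes.

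The lowest difference was in Exoc6b, which encodes a subunit of the exocyst, the complex that tethers secretory vesicles to the plasma membrane. Its level was 11.27 and 11.31 in wild type against 10.18, 10.26 and 10.15 in Mkl2-/-, 2.13-fold lower (-1.09 ± 0.04). Next was Tmem43, which encodes a protein of the inner nuclear membrane, at 10.15 and 10.17 against 9.12, 9.27 and 9.11 (-0.99 ± 0.06). Tpra1, a gene for a multi-pass membrane protein, read 10.08 and 9.99 against 9.08, 9.27 and 9.08 (-0.89 ± 0.08). In these 3 genes the gap between the groups was several times the spread within either group.

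The upstream sequences of these 3 genes are shown because theirs were the lowest differences. The 250 bases before each RefSeq gene start (GRCm38.p6) are written in the direction of the gene. Capitals mark the GC box GGGCGG and the letters CCAAT, each on either strand. Exoc6b lies on the minus strand at chr6:85069514-85069763, Tmem43 on the plus strand at chr6:91473457-91473706 and Tpra1 on the plus strand at chr6:88902001-88902250.
Exoc6b: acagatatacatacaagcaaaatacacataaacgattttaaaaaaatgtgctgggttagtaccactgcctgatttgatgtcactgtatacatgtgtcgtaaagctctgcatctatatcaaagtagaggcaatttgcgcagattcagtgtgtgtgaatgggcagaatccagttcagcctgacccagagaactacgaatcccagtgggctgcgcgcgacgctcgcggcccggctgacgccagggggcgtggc
Tmem43: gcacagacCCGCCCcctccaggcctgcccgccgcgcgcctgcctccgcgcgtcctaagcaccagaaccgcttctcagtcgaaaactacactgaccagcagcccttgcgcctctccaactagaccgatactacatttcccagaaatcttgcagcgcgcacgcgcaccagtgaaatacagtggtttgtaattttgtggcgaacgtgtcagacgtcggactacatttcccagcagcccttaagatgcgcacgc
Tpra1: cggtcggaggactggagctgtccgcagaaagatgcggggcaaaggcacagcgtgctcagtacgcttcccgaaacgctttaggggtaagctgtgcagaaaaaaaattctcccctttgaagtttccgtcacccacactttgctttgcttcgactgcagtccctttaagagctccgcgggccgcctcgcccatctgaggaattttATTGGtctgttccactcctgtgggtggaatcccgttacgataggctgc
In the bases shown, the first has neither, the second has 1 GC box and the last has 1 CCAAT, both read on the opposite strand. The windows counted next run past the start, and a gene can have several. In those, GGGCGG was found for Exoc6b and Tpra1 as well.

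RefSeq windows from 250 bases before to 50 after the start were found for 127 of the 145 members, 156 windows in all. The CArG box, the site of serum response factor, was in 0 of the 156, against 1.28% of the 13566 windows of genes above background and 1.63% of all 32851. GGGCGG was in 66.0% of the members' windows, against 61.6% for genes above background and 35.7% of all, and CCAAT in 37.2% against 36.9% and 37.4%. GGAATG, the core of TEAD sites, was in 9.62% against 12.3% and 14.7%, and TGANTCA, the AP-1 core, in 7.69% against 5.11% and 7.81%. The median GC content was 60.2% in the members' windows, 60.7% for genes above background and 52.7% over all. All letters were searched on both strands and may overlap, and a match or its lack says only whether the letters are in these windows.

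Among the other members with the lowest differences, Slc6a6, which encodes the taurine transporter, read 11.44 on both wild-type arrays and 10.59, 10.50 and 10.64 in Mkl2-/- (-0.86 ± 0.05). Eefsec, the gene of the elongation factor that brings selenocysteine to the ribosome, read 10.99 and 11.07 against 10.18, 10.21 and 10.12 (-0.86 ± 0.04). Gcfc2 read 8.76 and 9.04 against 8.21, 8.13 and 7.79 (-0.86 ± 0.17). The first 2 of these were tight within groups, whereas Gcfc2 varied more within its groups, still without overlap.

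Ccdc174 read 8.63 and 8.74 in wild type against 7.97, 8.04 and 7.68 in Mkl2-/- (-0.79 ± 0.13). Dysf, which encodes the membrane repair protein dysferlin, read 8.89 and 8.84 against 7.99, 8.02 and 8.16 (-0.81 ± 0.06). Vamp8, a SNARE gene of endosomal fusion, read 9.36 and 9.51 against 8.64, 8.66 and 8.63 (-0.79 ± 0.05). In all of these the highest Mkl2-/- array stayed below the lowest wild-type array.

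None of the 4 brightest members was among the 10 with the lowest differences. Sec61a1, the channel subunit of the endoplasmic reticulum translocon, read 12.82 and 12.75 in wild type against 12.33, 12.42 and 12.37 in Mkl2-/- (-0.41 ± 0.04). Pcbp1, which encodes a poly(C)-binding RNA protein, read 12.38 and 12.37 against 12.04, 12.11 and 11.99 (-0.33 ± 0.04). Cct7, a subunit gene of the cytosolic chaperonin, read 12.11 and 12.03 against 11.50, 11.63 and 11.59 (-0.50 ± 0.05). The groups stood apart in each, as they did in the ubiquitin ligase gene Kcmf1, which differed by -0.58 ± 0.03.

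The highest differences were small. Their genes had means under 8, except Chst13, whose mean of 8.81 was the median level of the members. Tlx2, a homeobox factor gene, read 7.76 and 7.56 in wild type against 7.81, 7.77 and 8.04 in Mkl2-/- (0.21 ± 0.12). Gkn1, a stomach gastrokine gene, read 7.90 and 7.65 against 7.91, 7.90 and 7.90 (0.13 ± 0.08). Its difference was 0.00 without wild-type replicate 2. Chst13, a chondroitin sulfotransferase gene, differed by 0.13 ± 0.06, Cyp26b1, which encodes an enzyme that clears retinoic acid, by 0.12 ± 0.07, and Dnajb8, a co-chaperone gene, by 0.08 ± 0.08. Each of these differences is about 1 to 2 times its SE.

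**Figure D5:**
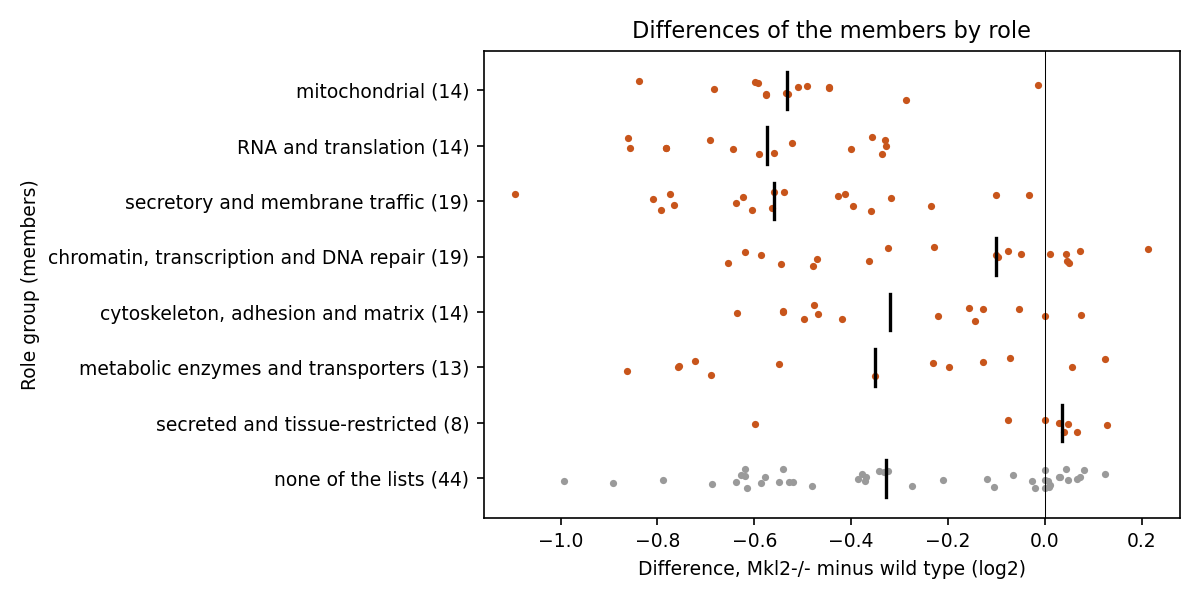
Difference between Mkl2-/- and wild type (log2) for the members in 7 role groups and for the 44 members in none of them. Each point is a gene and the black bar the group's median, from -0.57 for RNA and translation genes to 0.04 for secreted and tissue-restricted genes.

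Sorted by role, 101 members fell into 7 hand-made groups, each read beside the median of all genes above background, 0.01. The groups are not independent of the stretch, and nothing particular to a role is drawn from them. Members for RNA processing and translation had the lowest median, -0.57, at a median level of 10.53; all 14 were negative, 14 did not overlap and 12 were called lower, against 22.7% and 8.79% of all genes above background. Besides Eefsec and Gcfc2, Dusp11, an RNA phosphatase gene (-0.78 ± 0.06), and Tia1, a stress granule protein gene (-0.78 ± 0.08), were the lowest. Dusp11 read 11.00 and 11.02 in wild type against 10.14, 10.33 and 10.21 in Mkl2-/-. The splicing genes Lsm3 and Snrpg differed by -0.69 ± 0.05 and -0.33 ± 0.04.

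The 19 members for secretion and membrane traffic had a median of -0.56 at a median level of 9.26; all were negative, 17 without overlap, and 16 were called lower, against 22.7% and 8.79% of all genes above background. After Exoc6b, Dysf and Vamp8 came Aak1, a kinase gene of clathrin-mediated uptake, which read 10.35 and 10.54 in wild type against 9.70, 9.73 and 9.58 in Mkl2-/- (-0.78 ± 0.08). The smallest difference here was that of Vamp5 (-0.03 ± 0.03), a dim SNARE gene with a mean of 7.98.

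The 14 mitochondrial members had a median of -0.53 at a median level of 9.63; all were negative, 13 without overlap, and 12 were called lower, against 22.7% and 8.79% of all genes above background. Htra2, a protease gene of the intermembrane space, read 10.04 and 10.07 in wild type against 9.12, 9.37 and 9.16 in Mkl2-/- (-0.84 ± 0.09). Dguok, the mitochondrial deoxyguanosine kinase gene, read 10.64 and 10.72 against 9.96, 9.99 and 10.04 (-0.68 ± 0.04). Bola3, an iron-sulfur cluster factor gene, differed by -0.60 ± 0.06, and Immt, which encodes the organizer of cristae junctions, by -0.59 ± 0.04. The mitochondrial ribosome genes Mrpl35, Mrpl19 and Mrps25 lay between -0.53 and -0.45. Chchd6, at -0.01 ± 0.02, was the member of this group whose arrays overlapped.

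The 13 members for metabolic enzymes and transporters had a median of -0.35 at a median level of 8.17; 11 were negative, 11 without overlap, and 6 were called lower, against 22.7% and 8.79% of all genes above background. In 1 member, Cyp26b1, the order was the opposite. After Slc6a6, the lowest were Pcyox1, a prenylcysteine oxidase gene (-0.76 ± 0.04), the bicarbonate cotransporter gene Slc4a5 (-0.76 ± 0.05) and Gfpt1, the first enzyme of the hexosamine pathway (-0.72 ± 0.04). Slc4a5 read 8.40 and 8.29 in wild type against 7.55, 7.64 and 7.58 in Mkl2-/-. It is 1 of 4 members with a mean under 8 that had a difference of -0.30 or lower, with St3gal5, Elmod3 and Aplf.

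The 14 members for cytoskeleton, adhesion and matrix had a median of -0.32 at a median level of 8.79; 12 were negative, 10 without overlap, and 5 were called lower, against 22.7% and 8.79% of all genes above background. Capg, an actin filament capping gene, read 9.40 and 9.41 in wild type against 8.70, 8.81 and 8.80 in Mkl2-/- (-0.64 ± 0.04). Alms1, a basal body gene, differed by -0.54 ± 0.12, and Iqsec1, an exchange factor gene for Arf GTPases, by -0.54 ± 0.05. Fbln2, which encodes the matrix protein fibulin-2, differed by -0.05 ± 0.05.

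The 19 members for chromatin, transcription and DNA repair had a median of -0.10 at a median level of 8.51; 13 were negative, 12 without overlap, and 5 were called lower, against 22.7% and 8.79% of all genes above background. In 2 members, Tlx2 and Atoh8, the order was the opposite. Smyd5, of a family of protein methyltransferases, read 10.81 and 10.92 in wild type against 10.19, 10.24 and 10.20 in Mkl2-/- (-0.66 ± 0.04). Kdm3a, a histone H3 lysine demethylase gene, read 10.57 and 10.70 against 10.04, 10.12 and 9.89 (-0.62 ± 0.09). The nuclear receptor gene Nr2c2 differed by -0.59 ± 0.10 and the Polycomb gene Pcgf1 by -0.55 ± 0.14. The homeobox genes Emx1 (0.01 ± 0.03) and Vax2 (0.05 ± 0.03) and the helix-loop-helix gene Atoh8 (0.07 ± 0.04) had means under 8.5 and lay near zero.

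The 8 secreted or tissue-restricted members had a median of 0.04 at a median level of 7.60; 2 were negative, both without overlap, and 1 was called lower. These shares of 8 members are near the 22.7% and 8.79% of all genes above background. That was Trh, which encodes the precursor of thyrotropin-releasing hormone and was the brightest of them, at 11.33 and 11.22 in wild type against 10.64, 10.75 and 10.64 in Mkl2-/- (-0.60 ± 0.06). Tgfa differed by -0.08 ± 0.03 and the skin protease gene Asprv1 by 0.07 ± 0.13, a sign that turned (-0.02) without Mkl2-/- replicate 3. The 6 long noncoding RNA members had a median of 0.01 at a median level of 7.90. The 3 role groups with the lowest medians were also the 3 brightest, and the part of brightness in this order was not tested.

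Set beside another stretch of neighbours, the 30 genes above background on chromosome 4 from Rad23b to Prpf4 had a median of -0.35, with 25 of 30 lower without overlap, against 22.7% of all genes above background. That stretch was likewise chosen on this contrast, and the difference between them was not tested. By whole chromosome, medians over genes above background ran from -0.17 on chromosome 1 to 0.04 on chromosome 7, and that of chromosome 6 was 0.00.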

How the data were processed

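The authors deposited log2 intensities of 5 whole-transcript arrays. The submitters' processing notes name RMA and Affymetrix Expression Console 1.1 and no further settings. They run from 3.39 to 14.26 with array medians from 7.94 to 7.98, and the number of per-sample columns not used is 0. Of 35556 features, 21789 had 1 symbol in the platform annotation, 1621 several and 12146 none; 21698 matched the RefSeq table of GRCm38.p6 by Entrez identifier, which gave the gene order. The brightest feature stood for each gene. The difference was fitted over 19938 genes in limma (3.58.1, R 4.3.3; lmFit, eBayes), with 3 residual degrees of freedom and a Benjamini-Hochberg adjusted p threshold of 0.05. The fit was tested on simulated data.

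The members and lists were chosen with earlier results of these data known. Named were the end genes, the 10 lowest and 5 highest differences, the 4 brightest members, up to 4 of each role group by absolute difference, the 3 nearest genes outside each end, 3 on each side of the background level, and Mkl2; further names were picked with their values in view. Alternatives were 2 normalizations, 3 filters, the mean of features, the left-out genes, eBayes with trend and robust, a 1.5-fold minimum, a replicate block, centring and each array left out.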

Additional observations from a re-analysis of the deposited data

How the results depend on the processing

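The median difference of the members was negative under every alternative run, from -0.55 over members with a mean of 9 or more, an alternative chosen after seeing the data, to -0.15 with no filter on dim genes of the stretch. It was -0.53 with the background at the 99th percentile of olfactory receptor genes (8.07) and -0.41 after cyclic loess normalization. With single arrays left out it lay between -0.41 and -0.38. The count of members called lower, 75, became 87 after quantile normalization, 91 after cyclic loess and 84 in a fit over genes above background only. It became 36 with a 1.5-fold minimum and 24 to 26 with single Mkl2-/- arrays left out, which also leaves fewer residual degrees of freedom. Members called higher numbered 0 to 2 with single arrays left out. Members with no overlap numbered 104 to 109 lower and 4 to 12 higher with single arrays left out, counts that a removal can only keep or raise. The lower count, 104, was 98 after quantile normalization, 112 after cyclic loess and 95 at the 99th percentile. The higher count, 4, was 8 after quantile normalization, 2 after cyclic loess and 2 at the 99th percentile. It was 0 of the bright members, of which 65 were lower. The shares over genes above background, 22.7% lower and 20.3% higher, are for all 5 arrays as deposited. Counts with another normalization, the other background level or an array left out have no such share beside them, and nothing is read from them. Over all genes, 1252 were called lower and 596 higher. Quantile normalization gave 1652 lower and 1254 higher, cyclic loess 1979 lower and 970 higher, and the 1.5-fold minimum 408 and 96. The fit over genes above background only gave 1538 lower and 827 higher. With single arrays left out the counts ran from 0 to 490 lower and from 0 to 473 higher. The cause of these changes in counts was not tested.

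With the replicate number as a block, 0 members and 0 lower and 0 higher genes passed in limma, with 83 members lower at an unadjusted p under 0.05, against 13.5% of genes above background, and a median of -0.38 over the members. Same-numbered arrays deviated together with correlations of -0.20 and 0.19. The wild-type arrays deviate from their mean as opposites, so these are not separate checks and do not decide on a pairing. Mkl2-/- replicate 3 has no same-numbered wild-type array, and the block also leaves fewer residual degrees of freedom. Alternatives for single genes were run on 41 of the genes named, not on all of them. Of these, 40 kept their sign throughout. Asprv1 was at -0.02 with the block and without Mkl2-/- replicate 3. The values of dim members are limited by their small signal over background.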

Other observations

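Some features that carry symbols of the stretch stood outside the selection. They were assigned by symbol, and where on the genome each of them aligns was not checked. Of 12 dimmer features of members, 11 were above background, from 7 genes, with a median difference of -0.45 and all Mkl2-/- arrays below wild type in 7, against 22.7% of genes above background. A feature of Gm5878 had the opposite order, with 7.27 and 7.19 in wild type against 7.41, 7.42 and 7.46 in Mkl2-/- (0.20). Adamts9 has 5 of the dimmer features, which differed by -0.84, -0.76, -0.69, -0.44 and -0.04, so 1 feature of that gene read near zero while the others were lower. The second feature of Tmsb10, which encodes an actin monomer binding thymosin, had values of 11.13 and 10.97 on the wild-type arrays, all above the 10.31, 10.48 and 10.45 of Mkl2-/-. Of 9 features with several symbols that all lie in the stretch, 3 were above background, and all 3 were lower without overlap, against the same 22.7%, from -0.59 to -0.35. They belong to Alms1 with its pseudogene Alms1-ps2 and to Ccdc142 and Mrpl53, between which the deposited values do not divide the signal. All these features come from the same contrast and arrays as the members, and no test is attached to them.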
